A study of Mus musculus with 9 samples.

Results

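The mRNAs of 6 genes for acute-phase and secreted inflammation proteins, Saa3, Chil1, Hp, Lcn2, C3 and Serpina3n, were followed in HT-22, a line of immortalized cells from mouse hippocampus. They were taken by symbol from a table of 21352 genes, and each of the 6 was listed there. The set was chosen by name with earlier values of the same libraries known, mainly the rise of Saa3, Chil1 and haptoglobin after homocysteine thiolactone and their lower values after betaine, so the members' values below are a description and carry no test. Control cells (CON), cells exposed to 2 mM homocysteine thiolactone for 24 hours (HTL), and cells pretreated with betaine (10 mM, 4 hours) ahead of that same exposure (B-HTL) were each represented by 3 libraries. Homocysteine thiolactone is a reactive cyclic form of homocysteine, and betaine serves cells as an osmolyte and a source of methyl groups. The labels give wild type for the control cells and name no other allele, all groups are of 1 cell line, what the controls received is not given in the sources used here, and a group with betaine but no thiolactone was not analysed here. The comparisons address what the thiolactone does to these cells and what betaine pretreatment does to that response.

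Acute-phase proteins are plasma and tissue proteins whose synthesis climbs during inflammation, classically in liver under interleukin 6 and interleukin 1 and also outside it in macrophages, fibroblasts, fat cells and glia. The cytokine signals reach their genes largely through the C/EBP factors, NF-kB and STAT3. Serum amyloid A3 (Saa3) is a lipid-binding, largely extrahepatic member of its family, chitinase-like 1 (Chil1, the mouse counterpart of human CHI3L1) is a secreted chitin-binding lectin without chitinase activity, and lipocalin 2 (Lcn2) binds bacterial iron carriers. Haptoglobin (Hp) captures free haemoglobin, C3 is the central complement protein, and Serpina3n is a secreted serine protease inhibitor known in the brain as a marker of reactive astrocytes.

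The stretches just upstream of the genes are shown because these are where C/EBP and NF-kB proteins are known to act on acute-phase genes. RefSeq promoter windows were matched by symbol for 5 of the 6 genes on build GRCm38.p6, all but Hp. For the 4 expressed ones, the 250 bases before the annotated transcript start are given 5′ to 3′ on the gene's own strand, namely chr7:46715677-46715926 on the minus strand for Saa3, chr1:134181906-134182155 on the plus strand for Chil1, chr2:32387740-32387989 on the minus strand for Lcn2 and chr17:57228137-57228386 on the minus strand for C3. The start is the one in the promoter table, and for Saa3 and Serpina3n it lies inside the RefSeq span of the gene given below rather than at its outer end. Capitals mark matches to a C/EBP-type motif, TTNNGNAA, or an NF-kB-type motif, GGGNNNNNCC, read on both strands.
Saa3: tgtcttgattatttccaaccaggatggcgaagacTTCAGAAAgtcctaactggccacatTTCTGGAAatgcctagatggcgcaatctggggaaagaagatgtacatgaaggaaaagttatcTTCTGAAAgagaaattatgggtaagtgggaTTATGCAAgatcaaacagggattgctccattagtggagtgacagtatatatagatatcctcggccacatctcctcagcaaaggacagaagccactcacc
Chil1: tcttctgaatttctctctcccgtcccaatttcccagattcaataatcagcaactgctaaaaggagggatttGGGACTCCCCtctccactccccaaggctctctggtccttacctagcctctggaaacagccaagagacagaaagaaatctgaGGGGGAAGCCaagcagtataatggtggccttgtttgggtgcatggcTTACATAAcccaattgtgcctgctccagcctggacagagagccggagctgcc
Lcn2: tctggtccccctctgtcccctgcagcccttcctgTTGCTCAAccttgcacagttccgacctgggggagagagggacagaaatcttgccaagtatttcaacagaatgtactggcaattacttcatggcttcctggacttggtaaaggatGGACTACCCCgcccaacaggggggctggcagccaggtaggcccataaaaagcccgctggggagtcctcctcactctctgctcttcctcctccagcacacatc
C3: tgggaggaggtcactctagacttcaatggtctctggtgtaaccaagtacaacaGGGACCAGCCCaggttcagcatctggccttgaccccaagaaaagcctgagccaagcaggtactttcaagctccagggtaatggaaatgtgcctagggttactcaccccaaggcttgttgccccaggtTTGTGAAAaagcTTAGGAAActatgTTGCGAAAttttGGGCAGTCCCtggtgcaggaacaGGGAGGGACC

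The C/EBP-type letters occurred in the windows of 5 of 5 members, beside 36.8% of 32851 promoter windows of the same length in the RefSeq table. Saa3 held 4 matches, TTCAGAAA, TTCTGGAA, TTCTGAAA and TTATGCAA, the last at positions -99 to -92 from the start. C3 held 3 between positions -70 and -38. Chil1 and Lcn2 held 1 each, at -52 to -45 and at -216 to -209, both read on the opposite strand. The NF-kB-type letters occurred in 4 of 5 members and in 45.8% of all windows. In Chil1 they read GGGACTCCCC at -179 to -170 and GGGGGAAGCC at -98 to -89. In Lcn2 they read GGACTACCCC at -102 to -93 on the opposite strand. C3 held 4 such matches, of which GGGACCAGCC and its opposite-strand neighbour GGACCAGCCC overlap by all but the end base. Serpina3n, whose window at chr12:104406458-104406707 on the plus strand is not printed, held 2 C/EBP-type matches and 4 NF-kB-type matches in 2 overlapping pairs. The letters of a STAT-type motif, TTCNNNGAA, found in 7.02% of windows, and of TATAAA, found in 12.4%, did not occur in these 5 windows. A match is a run of letters, not a measured binding site, and no binding data were analysed here. Any link between the letters and the levels was not tested.

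**Figure D1:**
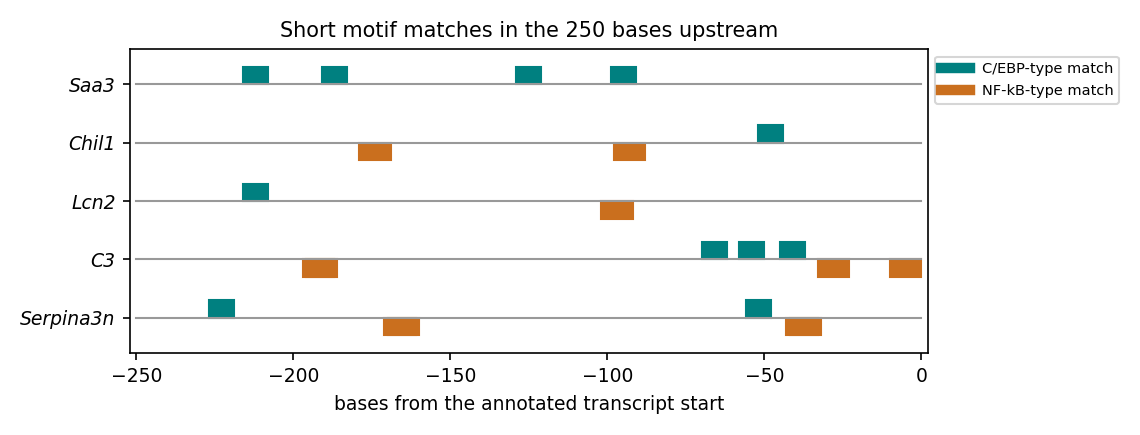
Positions of C/EBP-type matches (green, above each line) and NF-kB-type matches (orange, below each line) in the 250 bases before the annotated transcript start of 5 genes, on either strand, with the x axis in bases from the start. Saa3 shows 4 green blocks and no orange one, and in C3 both kinds lie within 70 bases of the start as well as an orange block near position -196.

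Levels are in FPKM, fragments scaled to gene length and to the library's total. This scaling does not remove differences in composition between libraries, so the comparisons were also run with other scalings. Library totals recovered from the steps of the values were 33305472 to 39464509 fragments, and 16441 to 17256 genes lay above 0. Of 10 neuronal markers checked, 2 averaged 0.5 FPKM or more, Tubb3 at 9.52 and Syn1 at 0.654. Map2 averaged 0.314, while the pan-neuronal genes Rbfox3, Mapt and Syt1 did not exceed 0.0156 FPKM in any library. The labelled neuronal type was thus borne out by few of its defining markers. Among 10 fibroblast and mesenchymal markers 4 averaged 0.5 FPKM or more, with Vim at 883 and Col1a1 at 121. Others of that list were low, with Col1a2 at 0.0877, Col3a1 at 0.242 and Lum at 0.00140. Astrocyte markers averaged 0.5 FPKM or more in 2 of 10, the gap junction gene Gja1 at 125 and Sox9 at 2.33. The astrocyte filament gene Gfap did not exceed 0.0282 FPKM. Of 10 hepatocyte markers, 0 averaged 0.5 FPKM or more, and albumin did not exceed 0.0583 FPKM. The leukocyte genes Ptprc and Itgam stayed at or below 0.0108 FPKM, but Tmem119 and Cd68 of the same microglia and macrophage list averaged 7.43 and 2.36. Itgb2, a leukocyte gene outside the marker lists, averaged 0.989 FPKM in CON, 2.37 in HTL and 1.51 in B-HTL.

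Saa3 was the highest of the 6 genes and had the widest range in FPKM. Its levels were 478, 502 and 493 FPKM in the CON libraries, 1687, 1663 and 1694 in the HTL libraries and 1028, 936 and 966 in the B-HTL libraries. The 3 groups were fully separate, with CON lowest, HTL highest and B-HTL between them. The group means were 491 ± 12.1 in CON, 1681 ± 16.4 in HTL and 977 ± 47.0 in B-HTL (SD, n = 3 each), so HTL stood 3.43-fold above CON and B-HTL lay 41.9% below HTL, still 1.99-fold above CON. Among all genes of a library, Saa3 ranked between 110 and 114 in CON, between 10 and 12 in HTL and between 38 and 41 in B-HTL. It carried 0.120% to 0.126% of the summed FPKM of a CON library, 0.421% to 0.427% of an HTL library and 0.238% to 0.258% of a B-HTL library. The values rest on 9246 to 35335 recovered fragments per library. In bulk RNA, more cells making Saa3 and more Saa3 mRNA per cell cannot be told apart. Saa3 lies at chr7:46711998-46719615 (GRCm38.p6, minus strand), beside related serum amyloid A genes, and of its 2602 transcript windows of 50 bases 93 recurred in at least 1 of 245 other genes, 9 of them in Saa1, Saa2 or Saa4. Those 3 relatives stayed at or below 0.420 FPKM in every library, Saa1 peaking at 0.181, Saa2 at 0.420 and Saa4 at 0.0966.

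Chil1, at chr1:134182156-134190031 on the plus strand, followed the same order at a far lower level. It was read at 3.44, 3.05 and 2.93 FPKM in CON, at 9.77, 10.4 and 10.9 in HTL, and at 5.24, 6.10 and 6.02 in B-HTL. No library of one group reached the range of another. HTL was 3.29-fold above CON (10.3 ± 0.555 against 3.14 ± 0.265, SD, n = 3 each), and B-HTL, at 5.78 ± 0.477, was 44.0% below HTL and 1.84-fold above CON. Between 185 and 727 fragments per library lie behind these levels.

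Lcn2, at chr2:32384637-32387739 on the minus strand, had a smaller rise with tight replicates. Its levels were 15.0, 15.1 and 16.2 FPKM in CON, 39.7, 39.4 and 38.5 in HTL, and 23.9, 23.2 and 23.2 in B-HTL. The groups were again separate. The HTL mean, 39.2 ± 0.609, was 2.54-fold that of CON, 15.4 ± 0.621, and the B-HTL mean, 23.5 ± 0.419, was 40.2% below HTL (SD, n = 3 each). Relative to each other, Saa3 and Chil1 kept nearly the same proportion, with a mean FPKM ratio of 157 ± 15.8 in CON, 163 ± 8.73 in HTL and 170 in B-HTL (154 to 196 over its libraries). The ratio of Saa3 to Lcn2 was 31.8 ± 1.33 in CON, 42.9 ± 0.953 in HTL and 41.6 ± 1.30 in B-HTL, so the CON libraries were apart and the exposed groups overlapped. The ratio of Saa3 to C3 ran from 4.82 ± 0.232 in CON to 14.2 ± 0.317 in HTL and 10.3 ± 0.706 in B-HTL.

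Haptoglobin was barely expressed, and its mean in B-HTL lay below CON, as did that of C3 but not those of Saa3, Chil1 and Lcn2. Hp, at chr8:109575128-109579172 on the minus strand, was read at 0.382, 0.621 and 0.320 FPKM in CON, 1.51, 1.41 and 1.34 in HTL, and 0.0757, 0.477 and 0.201 in B-HTL. HTL stood clear of both other groups, whose ranges overlapped. These levels correspond to 20, 29 and 17 recovered fragments in CON, 80, 71 and 69 in HTL, and 4, 23 and 9 in B-HTL. The exact Poisson 95% interval of the lowest library, B-HTL replicate 1, was 0.0206 to 0.194 FPKM, and that of the highest B-HTL library, replicate 2, was 0.302 to 0.715, both for counting error alone. On group means HTL was 3.22-fold above CON and B-HTL was 82.3% below HTL. Because 1 was added before taking logarithms, the fitted log2 changes of so low a gene are small, 0.75 for HTL against CON and -0.96 for B-HTL against HTL. With voom on the recovered reads, an alternative chosen after seeing the data, they were 1.73 and -2.81. For B-HTL against CON the log2 change was -0.21, with -1.08 by voom. With a library left out it ran from -0.34 without B-HTL replicate 2 to -0.11 without B-HTL replicate 1.

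C3 was well expressed in every group and moved little. Its levels were 105, 101 and 100 FPKM in CON, 122, 116 and 117 in HTL, and 92.5, 94.8 and 97.3 in B-HTL. The HTL libraries were all above CON and the B-HTL libraries all just below it. On group means C3, at chr17:57203967-57228136 on the minus strand, was 1.16-fold higher in HTL than in CON, 19.7% lower in B-HTL than in HTL, and 6.98% lower in B-HTL than in CON. The last difference was -0.10 on the log2 scale, -0.05 after quantile normalization and -0.15 under size factors.

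Serpina3n was at the edge of detection. It was listed at 0.0230, 0 and 0 FPKM in CON, 0.0455, 0.0359 and 0.0234 in HTL, and 0.0457, 0.0375 and 0.0135 in B-HTL. That is 2, 0 and 0 recovered fragments in CON, 4, 3 and 2 in HTL, and 4, 3 and 1 in B-HTL. The 2 libraries with none allow up to 0.0393 and 0.0345 FPKM (3 fragments each), which reaches into the HTL and B-HTL values, so no difference was detectable at this depth. The gene, at chr12:104406646-104414334 on the plus strand, belongs to a cluster of related genes. Of its 2015 transcript windows of 50 bases, 139 recurred in another gene, 115 of them in 6 checked relatives. Of the relatives listed, the highest value in any library was 0.266 FPKM, for Serpina3g.

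**Figure D2:**
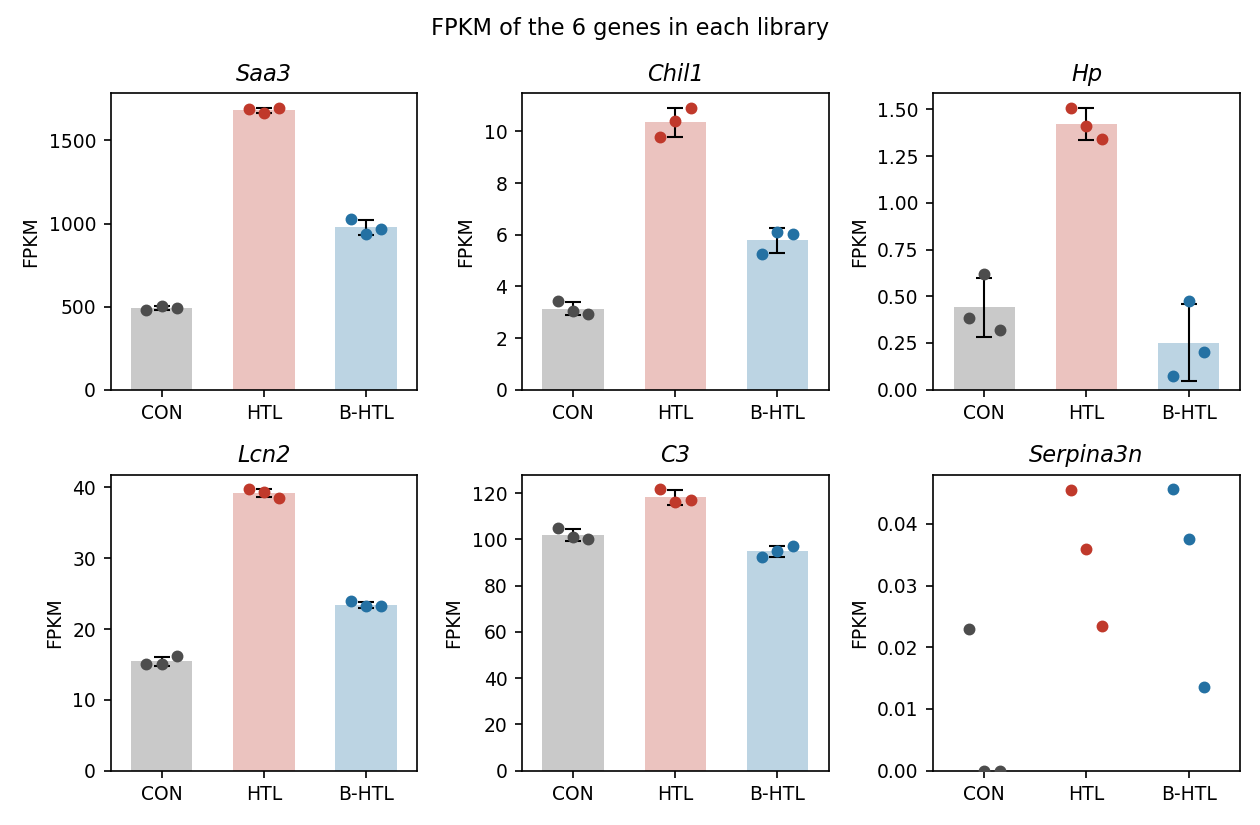
FPKM of the 6 genes (y axes, linear from 0, a separate scale per gene) in CON, HTL and B-HTL. Points are libraries and, except for Serpina3n with its 0 values, bars are means and whiskers the SD of 3 libraries. Saa3, Chil1 and Lcn2 climb from CON to HTL and sit between the others in B-HTL, whereas Hp and C3 in B-HTL are near or below CON.

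A mean of at least 0.5 FPKM was required for testing, which 11012 genes met, and 5 of the 6 members did, Serpina3n being the exception. Hp met it through its HTL libraries. In HTL against CON, 5 of the 5 tested members were past limma's adjusted threshold of 0.05 as rises, where 39.8% of all tested genes rose and 20.4% fell. All 5 had groups that did not overlap, as did 67.2% of all tested genes. In B-HTL against HTL the 5 were all past it as falls, beside 14.5% of genes that rose and 20.6% that fell, and all 5 were non-overlapping, beside 47.7%. In B-HTL against CON, Saa3, Chil1 and Lcn2 were past it as rises and C3 as a fall, beside 37.7% and 25.7% of all genes, and 4 were non-overlapping, beside 67.1%. C3 left the count past the threshold after quantile normalization, and Hp entered that count as a fall with voom or without B-HTL replicate 2. Nothing is read from these counts, since the members were chosen on the same contrasts, and the comparisons share libraries.

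On the fitted log2(FPKM + 1) scale, the changes from CON to HTL were 1.77 for Saa3, 1.45 for Chil1, 1.29 for Lcn2, 0.75 for Hp and 0.21 for C3, with a median of 1.29 beside 0.07 for all tested genes. By size of rise Saa3 was number 2 of the 11012 genes, Chil1 number 3, Lcn2 number 10, Hp number 65 and C3 number 2790. From HTL to B-HTL the changes were closer together, at -0.78 for Saa3, -0.74 for Chil1, -0.72 for Lcn2, -0.96 for Hp and -0.31 for C3, with a median of -0.74 beside -0.02. By size of fall Hp was number 5, Saa3 number 18, Chil1 number 20, Lcn2 number 28 and C3 number 438. From CON to B-HTL they were 0.99, 0.71, 0.57, -0.21 and -0.10 in the same order of Saa3, Chil1, Lcn2, Hp and C3, with a median of 0.57 beside 0.04. The standard errors were 0.03 for Saa3, Lcn2 and C3, 0.06 for Chil1 and 0.11 for Hp. The members were chosen with these changes known, so their ranks and medians are a description, and Hp met the filter through its HTL libraries.

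**Figure D3:**
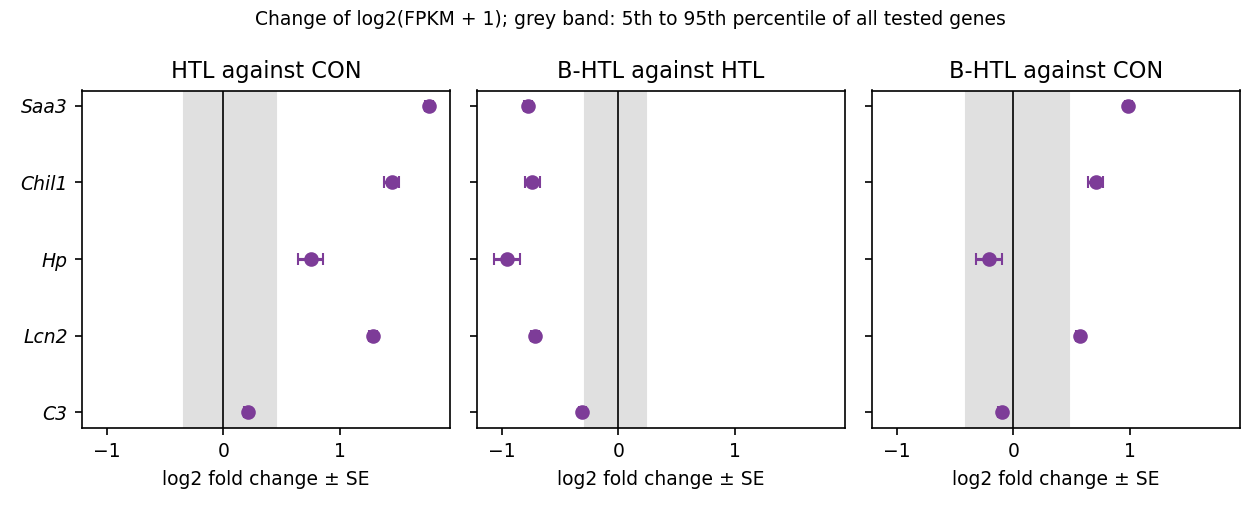
Fitted log2 fold changes with their standard errors (x axis) of the 5 tested genes in the 3 comparisons, which share libraries. The grey band spans the 5th to the 95th percentile of all tested genes, -0.34 to 0.45 for HTL against CON. Saa3, Chil1 and Lcn2 lie outside the band in every panel, and C3 lies inside it for HTL against CON and for B-HTL against CON.

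As a sum, the neutrophil markers, from a cell type that makes Lcn2 and Hp, were highest in HTL, as both genes were. The sums of CON and B-HTL overlapped. Their summed level was 0.682 to 1.21 FPKM in CON, 2.28 to 2.54 in HTL and 1.07 to 1.29 in B-HTL. It consisted mostly of Camp, an antimicrobial peptide gene, at 0.860 ± 0.269 in CON, 2.17 ± 0.405 in HTL and 1.13 ± 0.140 in B-HTL (SD, n = 3 each), and 1 of the 10 averaged 0.5 FPKM or more. The defining neutrophil genes Elane and Cxcr2 did not exceed 0.0326 FPKM and had their highest means in CON. S100a8, with its highest mean in HTL, did not exceed 0.544. Of the 10, the table lists 4, none of which was at 0 in every library. The part of such cells in the result was not tested. Hepatocyte markers summed to at most 0.187 FPKM in any library, with 0 to 0.0843 in CON and 0.108 to 0.140 in HTL. Microglia and macrophage markers, 2 of 10 of which averaged 0.5 FPKM or more, summed to 10.3 to 11.7 in CON, 10.1 to 11.8 in HTL and 7.65 to 8.59 in B-HTL.

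The tested genes closest in pattern to 3 of the members were found by the distance between the pairs of log2 differences HTL minus CON and B-HTL minus HTL, over 3 group means of 9 libraries and 10125 genes with at least 1 FPKM in their highest group. For Saa3 these were Chil1, Cxcl12 and Lcn2, at distances of 0.32, 0.45 and 0.49. For Chil1 they were Cxcl12 at 0.12, Lcn2 at 0.16 and Saa3 at 0.32. These distances are on the log2(FPKM + 1) scale, which shrinks the changes of a low gene such as Chil1. By ratio of mean FPKM, HTL to CON was 3.29 for Chil1, 3.43 for Saa3 and 2.54 for Lcn2, so Chil1 lay closer to Saa3. Cxcl12, which encodes a chemokine that attracts lymphocytes and stem cells, had mean levels of 17.2 FPKM in CON, 44.9 in HTL and 27.1 in B-HTL. For Hp the closest were Angpt1 at 0.24, Rasl11a at 0.31 and Hlf at 0.35. The changes of Hp are shrunk most on this scale and rest on 4, 23 and 9 fragments in B-HTL. Its mean FPKM ratio was 3.22 for HTL to CON and 0.177 for B-HTL to HTL, so these genes match its shrunken changes only. Angpt1, which encodes the vessel growth factor angiopoietin 1, had means of 10.5, 16.0 and 8.67 FPKM in CON, HTL and B-HTL, and Hlf, a PAR bZIP transcription factor gene, had means of 2.56, 5.51 and 3.21.

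**Figure D4:**
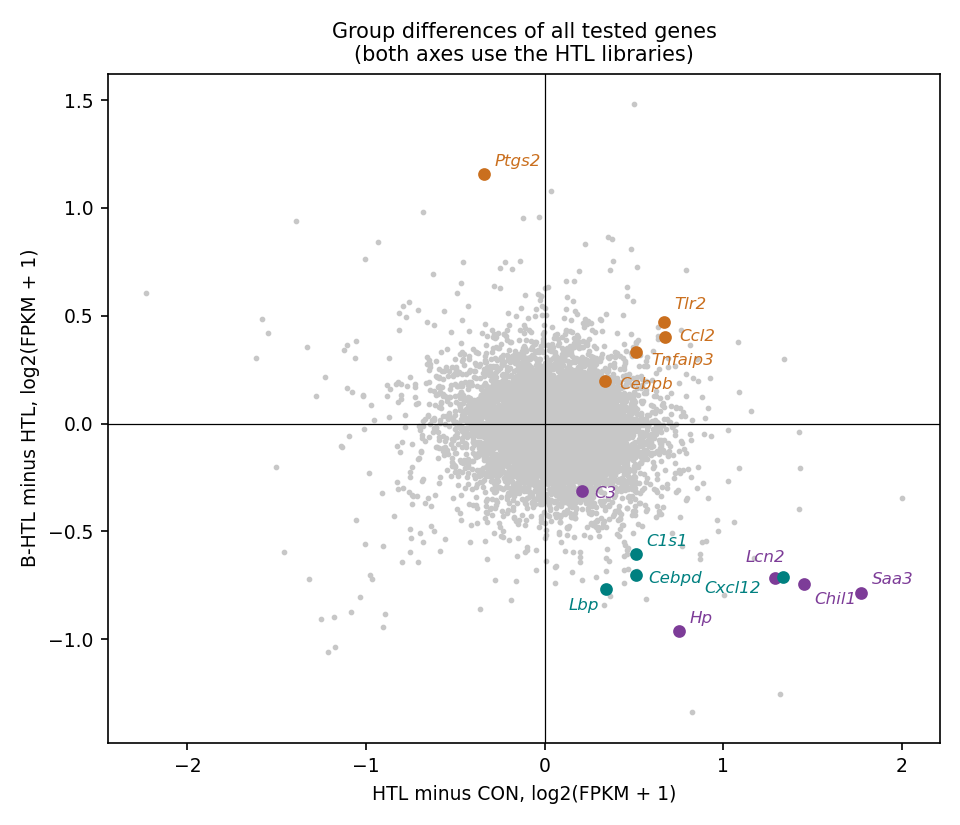
Difference of group means on the log2(FPKM + 1) scale for each tested gene, HTL minus CON on the x axis and B-HTL minus HTL on the y axis, so both axes use the HTL libraries and a chance high or low HTL value alone would spread points along the falling diagonal. Purple points are the members, green and orange points are other named genes that were lower or higher in B-HTL than in HTL. Saa3, Chil1 and Lcn2 lie at the lower right, at 1.29 to 1.77 across and -0.78 to -0.72 down, while Tlr2, Ccl2, Tnfaip3 and Cebpb lie at the upper right.

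The genes around the members were read from lists of textbook roles, with 234 genes beside the members, of which 190 were listed and 116 were tested. In HTL against CON 53 of the 116 rose and 24 fell, so that 68.8% of the calls were rises, but 56.5% with size factors and 57.7% after quantile normalization. Over all tested genes that share was 66.1%, 50.9% and 52.2%. In B-HTL against HTL 35 rose and 29 fell, and the share of rises over all called genes was 41.4%, with 50.8% under size factors and 51.8% after quantile normalization. In B-HTL against CON 52 rose and 32 fell, with 59.5% of all calls being rises. The median log2 changes of the lists for HTL against CON, beside 0.07 for all tested genes, were 0.26 for other acute-phase proteins, 0.15 for complement, 0.14 for regulators, 0.13 for the interleukin 6 and STAT3 response, 0.09 for cytokines and receptors, 0.08 for binding partners, 0.03 for glucocorticoid response genes, 0.02 for reactive astrocyte genes and -0.16 for the chitinase-like family. For B-HTL against HTL, beside -0.02, they were -0.21, -0.26, 0.01, 0.02, -0.06, -0.06, -0.04, 0.05 and -0.10 in that order.

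Among other acute-phase proteins, 4 of 41 listed genes were tested, and the others in the table averaged under 0.5 FPKM. In HTL against CON 3 rose and 0 fell, where 39.8% of all tested genes rose and 20.4% fell. Ptx3, a pentraxin made at sites of inflammation, went from 137 to 176 FPKM (log2 change 0.36 ± 0.03 SE, limma adjusted p = 1.49e-06), and Lbp, the lipopolysaccharide-binding protein, from 7.58 to 9.89 (0.35 ± 0.06, adjusted p = 0.000477). The rise of F3, tissue factor, from 15.0 to 17.0 FPKM was lost under size factors (adjusted p = 0.0767). In B-HTL against HTL these genes parted. Lbp fell to 5.41 FPKM (-0.77 ± 0.06, adjusted p = 4.69e-06) and Cp, the copper carrier ceruloplasmin, fell from 35.7 to 22.6 (-0.64 ± 0.03, adjusted p = 5.16e-08), whereas Ptx3 and F3 rose, to 204 and 22.7 FPKM. Lbp and Cp ended below CON in B-HTL, with log2 changes of -0.42 and -0.63 that passed the threshold.

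Complement genes, the pathway of C3, were called in part. Of 10 tested, 4 (40.0%) rose and 0 fell in HTL against CON, where 39.8% of all tested genes rose and 20.4% fell. In B-HTL against HTL 0 rose and 6 fell, where 14.5% of all tested genes rose and 20.6% fell. In B-HTL against CON 2 rose and 4 fell, beside 37.7% and 25.7% of all tested genes. C1s1, a protease of the classical pathway, went from 11.7 FPKM in CON to 17.1 in HTL (0.51 ± 0.06, limma adjusted p = 1.73e-05) and to 10.9 in B-HTL (-0.61 ± 0.06, adjusted p = 1.81e-05). C1ra, its partner protease, went from 16.7 to 21.4 FPKM, and Masp1, a lectin-pathway protease, from 19.3 to 24.0 and back to 17.0. Of the family of Chil1, 2 genes were tested, and Chid1, a chitinase-domain protein gene, fell from 5.51 FPKM in CON to 4.50 in HTL and 3.69 in B-HTL.

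Of the inducing cytokines, Il6 stayed at or below 0.562 FPKM, Il1a at or below 0.0565 and Tnf at or below 0.0155 in every library, whereas Lif, a cytokine of the interleukin 6 family, was read at 1.91 to 2.68 FPKM and Ctf1, another, at 4.27 to 5.39. Of 22 tested cytokines and receptors, 11 rose and 4 fell in HTL against CON, beside 39.8% and 20.4% of all tested genes. Between HTL and B-HTL 7 rose and 7 fell, beside 14.5% and 20.6% of all tested genes. Osmr, the oncostatin M receptor, went from 15.7 to 22.7 FPKM (0.51 ± 0.03, limma adjusted p = 2.87e-07) and fell to 19.7 in B-HTL. Il6st, the shared receptor chain of the interleukin 6 family, a gene named after its values were seen, went from 83.1 to 106 and then to 96.6 FPKM. Il1r1, the interleukin 1 receptor, fell from 8.06 to 5.97 FPKM in HTL, and Tnfrsf1b, a TNF receptor, rose from 16.7 in HTL to 21.1 in B-HTL. Il33, an alarmin cytokine, fell from 1.71 FPKM in HTL to 0.920 in B-HTL.

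Of the transcription and signal regulators, 28 were tested. In HTL against CON 17 (60.7%) rose and 2 (7.14%) fell, beside 39.8% and 20.4% of all tested genes. In B-HTL against HTL 10 (35.7%) rose and 5 (17.9%) fell, beside 14.5% and 20.6%. Cebpd, a C/EBP factor known to act on acute-phase genes, had a mean of 31.1 FPKM in CON, 44.8 in HTL (0.51 ± 0.05, limma adjusted p = 5.55e-06) and 27.2 in B-HTL (-0.70 ± 0.05, adjusted p = 1.69e-06), and lay below CON in B-HTL (-0.19 ± 0.05, adjusted p = 0.0048). Its relative Cebpb had means of 118, 150 and 173 FPKM, rising in both steps (0.34 ± 0.05 and 0.20 ± 0.05), the second of which was lost without HTL replicate 2 (adjusted p = 0.0618) and with no filter on low genes (adjusted p = 0.0766). Rela, the NF-kB subunit p65, had means of 40.1, 51.7 and 57.0 FPKM and also rose in both. So did Tnfaip3, an NF-kB target and inhibitor, with means of 5.90, 8.86 and 11.4 FPKM. Bcl3, an NF-kB cofactor, rose from 0.163 to 1.05 FPKM in HTL, by 0.82 on the log2(FPKM + 1) scale and by 2.80 with voom, and its fall to 0.730 in B-HTL was lost with a pseudocount of 0.1 (-0.48, adjusted p = 0.127), with voom (-0.52, adjusted p = 0.0834) and without HTL replicate 1 or 2 or B-HTL replicate 2 or 3 (adjusted p from 0.0579 to 0.0745). Stat3, the factor that carries the interleukin 6 signal, named after its values were seen, had means of 39.5, 43.4 and 37.4 FPKM.

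Of 15 tested genes of the interleukin 6 and STAT3 response, 8 rose and 2 fell in HTL against CON. All tested genes stood at 39.8% and 20.4% there. Between HTL and B-HTL 5 rose and 3 fell, beside 14.5% and 20.6% of all tested genes. Ccl2, a monocyte-attracting chemokine, had means of 969, 1544 and 2042 FPKM in CON, HTL and B-HTL and rose in both steps (0.67 ± 0.02, limma adjusted p = 2.41e-09, and 0.40 ± 0.02, adjusted p = 4.98e-07). Pim1, a STAT3-induced kinase, had means of 6.20, 11.2 and 15.5 FPKM and also rose in both. Timp1, a metalloprotease inhibitor, fell in both, from 103 to 85.8 and then to 75.8 FPKM. Among receptors and binding partners of the members' proteins, 4 of 11 (36.4%) rose and 5 (45.5%) fell in HTL against CON. In B-HTL against HTL 3 (27.3%) rose and 2 (18.2%) fell, with the same shares of all tested genes beside them as above. Tlr2, a pattern receptor that binds serum amyloid A, rose from 22.6 to 36.5 and then to 51.1 FPKM (0.67 ± 0.03, adjusted p = 2.36e-08, and 0.47 ± 0.03, adjusted p = 1.03e-06). Lrp1, an endocytic receptor, fell from 31.3 to 20.5 FPKM in HTL, and Lrp2, the receptor that takes up lipocalin 2, fell from 7.44 to 4.69. Cd44, a hyaluronan receptor, fell from 48.2 to 34.8 FPKM in HTL and rose to 39.4 in B-HTL.

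**Figure D5:**
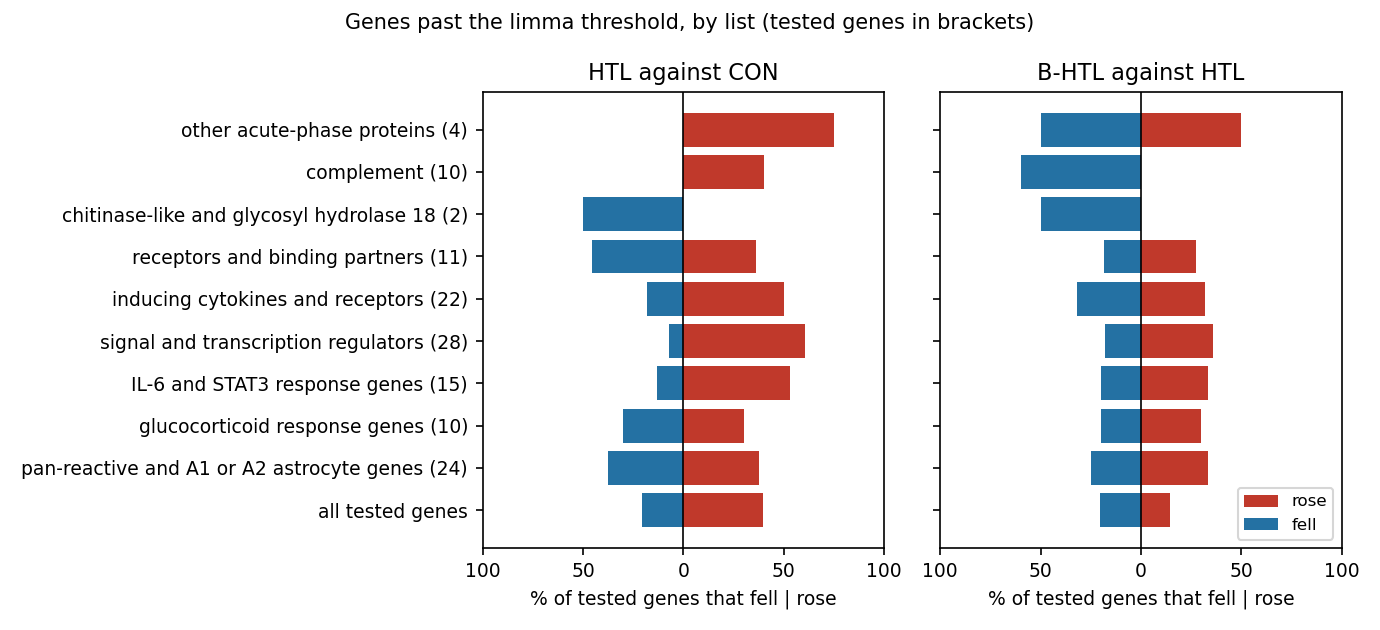
Percent of the tested genes of each list that rose (red, to the right) or fell (blue, to the left) at limma's adjusted threshold of 0.05, with the number tested in brackets and all tested genes at the bottom. Of complement genes 40.0% rose in HTL against CON and 6 of 10 fell in B-HTL against HTL, and the lists hold as few as 2 tested genes.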

How the data were processed

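Total RNA of 9 libraries was sequenced, and the authors deposited 1 table of FPKM per gene, per the file headers. The tools were HISAT2, fastp, HTSeq and R 3.2.0 on build mm10, per the submitters' processing notes. What each did, how reads were counted and whether strand was used is not given in the sources used here, so genes with near-identical, overlapping or antisense copies are uncertain. Library totals and whole reads were recovered from the FPKM steps: 21352 of 21352 genes came out whole within 0.05 reads, which is a weak check as lengths were chosen to fit, and 99.83% of 3569 genes came back exactly in a test on simulated data. 95% intervals and floors of 3 fragments cover counting error only.

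Genes averaging 0.5 FPKM or more were tested across all genes on log2(FPKM + 1) with limma 3.58.1 (R 4.3.3), 3 group means, an intensity trend, 6 residual degrees of freedom, two-sided, with Benjamini-Hochberg adjustment at 0.05. Fold changes on this scale understate those of low genes. On data simulated for HTL against CON over 10842 genes, 97 of 100 changes of 1.5-fold and 99 of 100 of 2-fold were recovered, and 6 of 10645 unchanged genes were called. The simulation gave every gene the same small spread beyond counting error and as many rises as falls. Far fewer genes changed in it than were called here, so its rates need not hold for the real libraries. The labels do not say whether libraries are of separate cultures, so p-values reflect only how far these libraries differ, possibly for technical reasons.

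The members, gene lists and rules were chosen with earlier results of these data known. Other genes named were, per list and comparison, up to 3 rises and 3 falls of largest log2 size past the threshold and reaching 1 FPKM in their higher group, plus paralogs by level and the 3 nearest patterns of Saa3, Chil1 and Hp. Not every gene so taken is printed. Cytokines and marker genes given by level, Il6st and Stat3 were named outside that rule. Alternatives covered pseudocount, filter, scaling, TPM, a replicate block, fewer groups, no trend and each library left out, and voom on recovered reads, which was chosen after seeing the data. Promoter windows came from RefSeq (GRCm38.p6), and scripts ran in Python 3.11.15.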

Additional observations from a re-analysis of the deposited data

How the results depend on the processing

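Under 20 alternative settings 0 of 297 log2 changes of the members and 0 of 2397 values of other named genes changed direction. Leaving out each library gave 5962 to 6788 called genes for HTL against CON, 3057 to 3851 for B-HTL against HTL and 6435 to 6939 for B-HTL against CON. Members called were 5 in the first 2 comparisons in each such run and 4 to 5 in B-HTL against CON, and other list genes 71 to 78, 57 to 65 and 80 to 84. Of the members' log2 changes 30 moved by more than the spread, Hp and Chil1 mainly with the pseudocount, TPM or voom and C3, Saa3 and Lcn2 mainly with the scaling, and 7 results of genes taken by the naming rule lost their call under at least 1 setting, as did the rise of Cebpb from HTL to B-HTL. A filter at 5 FPKM removed Hp, so it gave no value there. Same-numbered libraries did not deviate together: 9 correlations of deviations ran from -0.07 to 0.06, with 0 above 0.1, and 8 of 18 checks paired a library best with its own number. With a replicate block 6532, 3690 and 6920 genes were called in the 3 comparisons against 6639, 3871 and 6981 without it, and 5, 5 and 4 members against 5, 5 and 4. Depth limits Serpina3n in every group and Hp in B-HTL.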

Other observations

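Genes of the reactive astrocyte programme, of which Serpina3n and Lcn2 are known markers, moved both ways. Of 24 tested, 9 (37.5%) rose and 9 (37.5%) fell in HTL against CON, beside 39.8% and 20.4% of all tested genes. In B-HTL against HTL 8 (33.3%) rose and 6 (25.0%) fell, beside 14.5% and 20.6%. Ptgs2, cyclooxygenase 2, had means of 34.3 FPKM in CON, 26.9 in HTL and 61.2 in B-HTL, with a log2 change of 1.16 ± 0.03 (SE, limma adjusted p = 9.75e-10) from HTL to B-HTL. Gbp2, an interferon-induced GTPase, rose in both steps, from 24.0 to 34.8 and 58.3 FPKM, as did Cxcl10, an interferon-induced chemokine, from 75.7 to 105 and 163. Vim, an intermediate filament gene, fell from 1102 to 785 FPKM in HTL.

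Of 10 tested glucocorticoid response genes, 3 rose and 3 fell in HTL against CON, beside 39.8% and 20.4% of all tested genes. Between HTL and B-HTL 3 rose and 2 fell, beside 14.5% and 20.6% of all tested genes. Sgk1, a kinase, went from 22.1 to 30.5 FPKM and then fell to 26.9. Ddit4, an inhibitor of mTOR signalling, fell from 112 to 79.3 FPKM in HTL and rose to 94.3 in B-HTL, and Klf9, a transcription factor, fell from 10.6 to 8.49 and rose to 11.8.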
